A study of Saccharomyces cerevisiae with 14 samples.

Results

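The nuclear-encoded mRNAs of oxidative phosphorylation are described here as targets of crosslinking by Hel2 and New1 in *Saccharomyces cerevisiae*. The members were 41 listed genes, chosen by the complex that their products belong to and not by any read number, and all 41 were found among the 5838 protein-coding genes used. They comprise 14 genes of ATP synthase, 9 of complex III, 9 of complex IV, 4 of complex II, 2 of cytochrome c and 3 of NADH dehydrogenases. The reads came from CRAC, in which a tagged protein is crosslinked to RNA by ultraviolet light in living cells and the RNA bound to it is purified and sequenced. Hel2 is a ubiquitin ligase that recognises collided ribosomes, and New1 is an ATPase related to the translation elongation factor eEF3. The question of the comparison was whether Hel2 is found on other mRNAs when New1 is missing.

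Oxidative phosphorylation takes place at the inner membrane of the mitochondrion. NADH dehydrogenases and complex II pass electrons through ubiquinone to complex III, cytochrome c carries them to complex IV, which reduces oxygen, and ATP synthase uses the proton gradient that complexes III and IV build up. In budding yeast, as in other eukaryotes, most subunits are encoded in the nucleus, translated in the cytosol or at the mitochondrial surface and imported, while a few core subunits are made from mitochondrial DNA. Budding yeast has no proton-pumping complex I and oxidises NADH through the enzymes Ndi1, Nde1 and Nde2. In medium with glucose, genes of respiration are in part repressed.

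All strains were BY4741, grown in SD-Trp medium according to the labels (at 20°C the methods name a medium that also lacks uracil), with 2 replicates of each group. Hel2 carried the HTP purification tag (Hel2-HTP::URA3) in wildtype cells and in cells that also carried new1-delta::KanMX6, termed *new1Δ*, both at 20°C and at 30°C. New1 carried the tag (New1-HTP::URA3) in wildtype cells at 20°C. Untagged wildtype cells were the control at both temperatures. The tag was on the genomic copy of each protein, and libraries of the 2 temperatures were prepared by partly different steps, so that temperature and preparation cannot be told apart. The amount of each mRNA was not measured in these libraries, so more bound reads and more mRNA cannot be told apart either.

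The 10 tagged libraries held between 330299 and 1433090 mRNA reads and the untagged ones 356 and 1793 at 20°C and 310279 and 23629 at 30°C. No member had a read in the untagged libraries at 20°C, but at that depth a share of up to 1.07% and 0.214% is compatible with a count of 0 (upper bounds of the Wilson 95% intervals). These bounds treat reads as independent, while the mRNA reads came from 279 and 353 cDNAs. The second bound is therefore too low, and it does not place the background at 20°C below the signal. The untagged libraries at 30°C had members at 0.557% and 0.546% of mRNA reads, so the background there was of the same order as the signal and has to be read beside each level. *NEW1* itself, the deleted gene, had 0 and 0 reads in *new1Δ* at 20°C and 0 and 7 at 30°C, against 105 to 1192 in the Hel2-HTP wildtype libraries. The headers inside 2 files name another strain than the label: the file labelled as Hel2-HTP *new1Δ* replicate 2 at 20°C names a New1-HTP input, and the file labelled as New1-HTP replicate 2 names a New1-HTP strain without *HEL2*. The first of these had 0 *NEW1* reads and 0 *HEL2* reads and the second had 581 and 143. For comparison, *HEL2* had 120 to 515 reads in the other Hel2-HTP libraries and 1 read in New1-HTP replicate 1. Which strain each of the 2 files holds is therefore not settled by these counts. The labels were followed and values are given by library. The fits without these libraries are given for *ATP15*, *ATP16*, *INH1*, *QCR7*, *COX5A*, *ATP2*, *SDH1* and the carrier gene *PET9*, and leaving out a replicate at 20°C or at 30°C drops its wildtype and its *new1Δ* library together. Each arm then holds 1 library, and the spread comes from the libraries of the other temperature, so these p-values assume that the lone libraries vary like the others.

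Loss of New1 is known in yeast to make ribosomes queue ahead of the stop codon after certain last codons, so the coding ends of the members were read from the reference. The study sorts last codons into a strong class (AAA for lysine, AGG and CGU for arginine), a mild class and the remaining codons. This sorting was made in part on the libraries used here, so the direction of the strong class is not independent evidence. Of the 41 members, 7 (17.1%) belonged to the strong class, all of them with AAA, against 11.5% of all genes used. Another 4 were of the mild class (*ATP2*, *QCR10*, *COX6* and *COX9*) and 30 had other codons. The ends of the 7 coding sequences with AAA are shown because 2 of the 3 members that rose or fell in the tests below, *ATP15* and *ATP16*, are among them, with the last sense codon in capitals followed by the stop codon (RefSeq, R64 assembly, 5′ to 3′ on the coding strand).
ATP15: tctgaacccactccaataacaAAAtag
ATP16: gaaaacctacaatccgtattgAAAtag
INH1: aataaaattgactcgatgaccAAAtaa
QCR7: ttagacaacatagaggtctccAAAtga
COX5A: ggttattctcaggtccaatctAAAtga
COX5B: ggttattctcaagttcaatctAAAtaa
CYC7: acttatatgacaaaggctgccAAAtag
The 4 members that end in AAG, the other lysine codon, are shown for comparison, since they encode the same last residue.
ATP4: gaacaattgctttctaaattgAAGtaa
QCR6: cctagattatttgacaaattaAAGtag
CYT1: ttcaatccaccaaaaccaagaAAGtag
SDH4: agtcaaaagattgaagccaagAAGtag
Stop codons of all 3 kinds follow AAA, with TAG in *ATP15*, *ATP16* and *CYC7*, TAA in *INH1* and *COX5B* and TGA in *QCR7* and *COX5A*.

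In the R64 assembly, *ATP15* (YPL271W) lies at chrXVI:30079-30267 on the plus strand and *ATP16* (YDL004W) at chrIV:443029-443511 on the plus strand. *INH1* (YDL181W) lies at chrIV:135179-135436 on the plus strand, *QCR7* (YDR529C) at chrIV:1496165-1496548 on the minus strand and *COX5A* (YNL052W) at chrXIV:531725-532186 on the plus strand. *SDH1* (YKL148C) lies at chrXI:169207-171129 on the minus strand. These are coding sequences in 1 exon. Members were short, with a median coding length of 456 bases against 1224 for all genes used, and 3 of the 41 (*QCR9*, *QCR10* and *COX5B*) have an intron. Read numbers of short genes were small, and a gene with no read in a library was common. Levels within a gene are given as reads or as CPM, the reads of the gene for each 1000000 mRNA reads of the library.

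**Figure D1:**
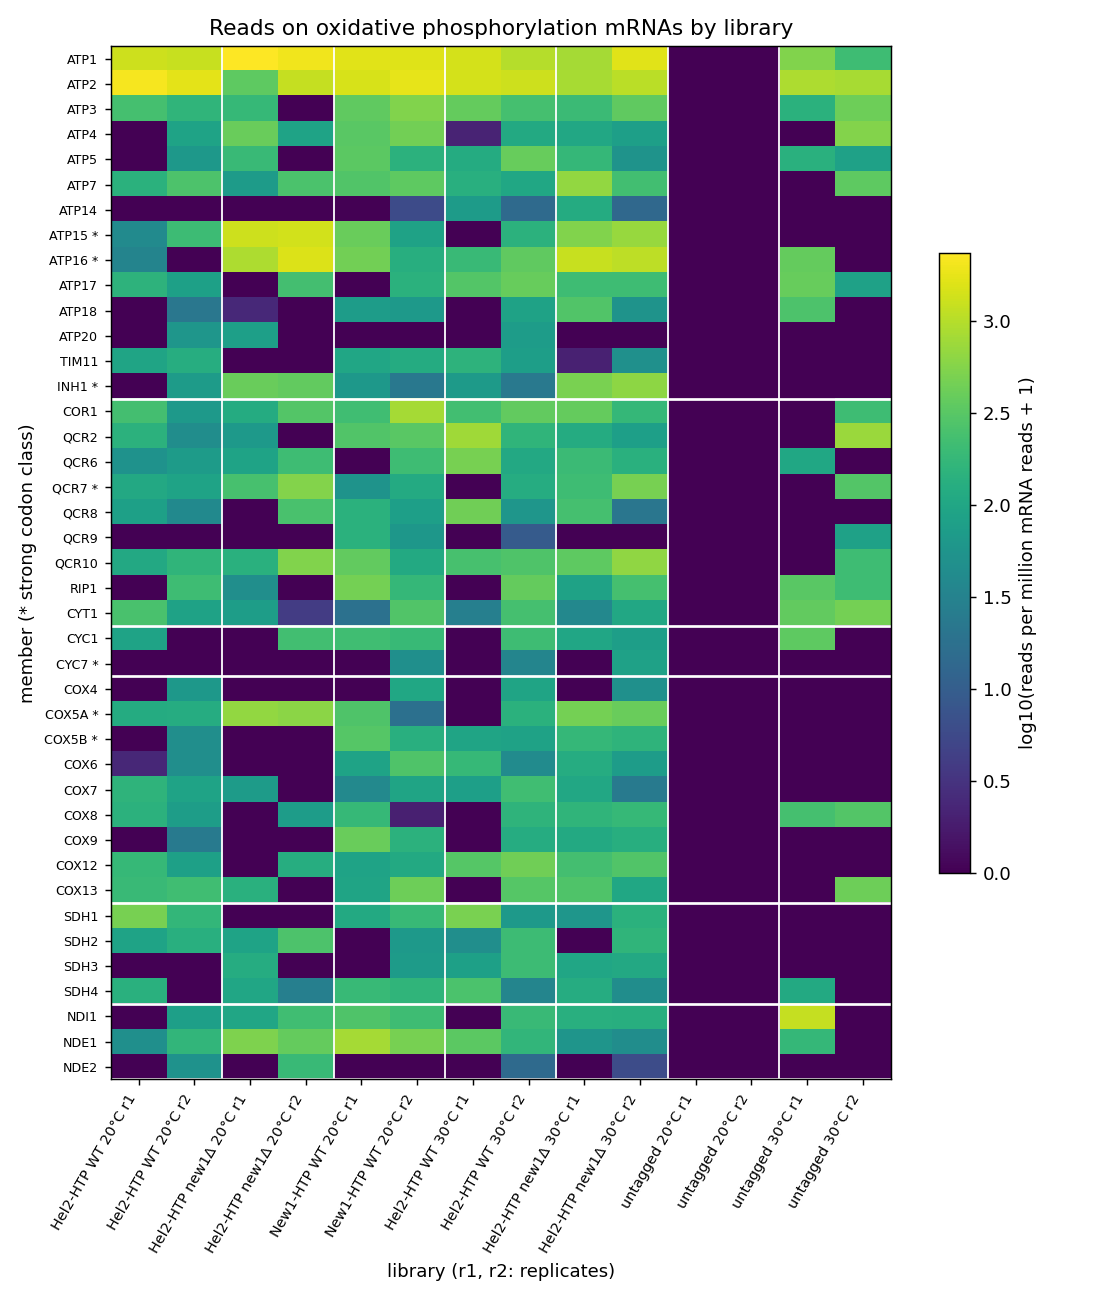
CPM, on a log10 scale after adding 1, of the 41 members (rows, by complex) in the 14 libraries (columns, r1 and r2 are replicates). *ATP1* and *ATP2* are bright in all 10 tagged libraries, *ATP15* and *ATP16* are brightest in *new1Δ*, and the untagged libraries at 20°C hold no member read.

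Per length, the members with the highest mean level over the 10 tagged libraries were subunits of ATP synthase. The mean was 1425 RPKM (reads per kb of feature at the scale of CPM) for *ATP15*, 766 for *ATP16*, 683 for *ATP1* and 679.6 for *ATP2*, followed by 428 for *QCR10*. *ATP15*, the epsilon subunit of the catalytic F1 part, ranged from 0 to 4115 over these libraries on the same scale, and *ATP1*, the alpha subunit, from 376 to 1064. The lowest means were 13.7 for *NDE2* and 26.2 for *CYC7*. All 40 pairs of neighbours in this order overlapped in their ranges, so no neighbour differed from the next beyond its spread. The order pools wildtype, *new1Δ* and New1-HTP libraries and is not that of wildtype cells. In Hel2-HTP wildtype at 20°C the group means were 365 RPKM for *ATP15* and 20.9 for *ATP16*, against 3996 and 1590 in *new1Δ*. At 30°C they were 215 and 350 in wildtype, against 1839 and 1493 in *new1Δ*. Only 6 of the 41 members had more than 3 reads in each of the 10 tagged libraries, and 13 had them in 9.

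**Figure D2:**
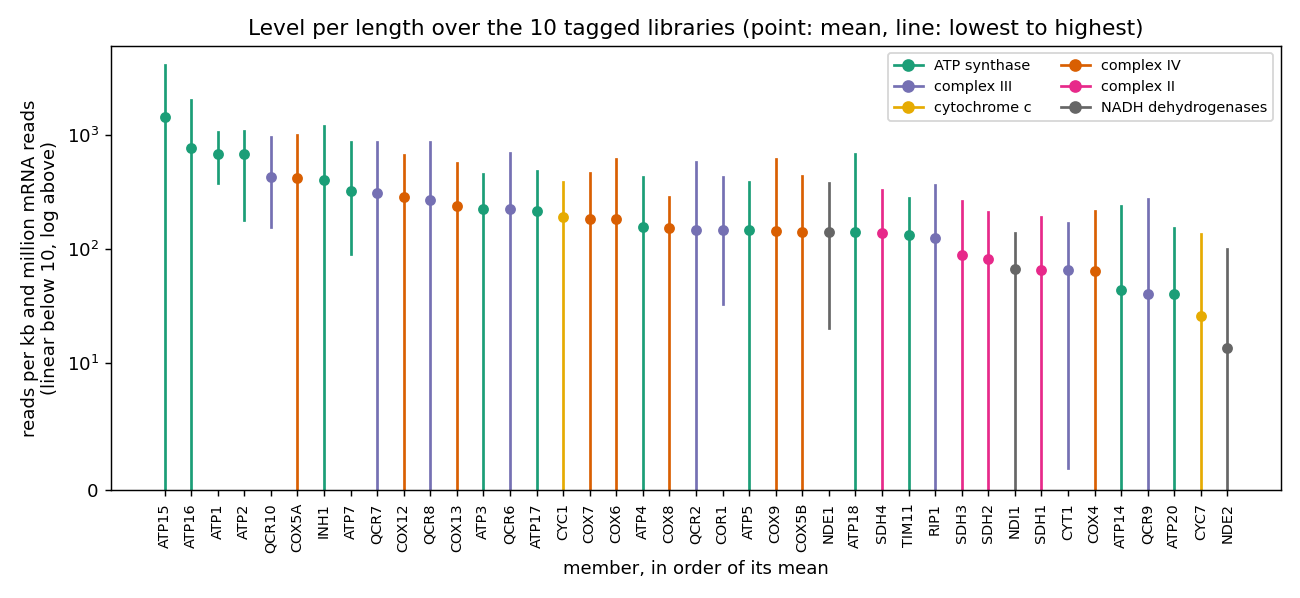
Level per length of each member over the 10 tagged libraries (RPKM, linear below 10 and log above), with the mean as a point and the lowest to highest library as a line. Means pool wildtype, *new1Δ* and New1-HTP libraries and run from 1425 for *ATP15* to 13.7 for *NDE2*, and the ranges of all neighbours overlap.

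ATP synthase, the largest group of the members, carried the clearest difference between *new1Δ* and wildtype. The delta subunit *ATP16* of F1 was higher with Hel2-HTP in *new1Δ* at 20°C, and the epsilon subunit *ATP15* was higher at both temperatures. The 2 large F1 subunits, *ATP1* and *ATP2*, passed the test at neither temperature.

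*ATP15* had 40.2 and 206 CPM in Hel2-HTP wildtype at 20°C and 1307 and 1387 in *new1Δ* (the values of replicate 1 and replicate 2, here and below). At 30°C the values were 0 and 145 in wildtype and 540.1 and 699 in *new1Δ*. Both *new1Δ* libraries were above both wildtype libraries at each temperature, and the untagged libraries had no read on the gene. The fitted log2 fold change was 3.73 (SE 1.07) at 20°C and 5.70 (SE 1.33) at 30°C, with adjusted p = 0.0355 and 0.00486 by edgeR's quasi-likelihood test over all genes. At 30°C the change rested on replicate 1, where wildtype had 0 reads, and without it the value was 2.55 with adjusted p = 1.0. Without replicate 2 at 20°C, which holds the library with the divergent header, the value was 5.30 with adjusted p = 0.694, and without replicate 1 it was 2.40 with adjusted p = 0.851. Both calls were also lost with no replicate block, at 3.22 with edgeR adjusted p = 0.594 and 3.31 with adjusted p = 1.0, and the one at 30°C in the fit on only the libraries compared (adjusted p = 0.905).

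*ATP16* had 32.2 and 0 CPM in Hel2-HTP wildtype at 20°C and 905 and 1541 in *new1Δ*. At 30°C it had 188 and 349 in wildtype and 1219.9 and 1076 in *new1Δ*. The *new1Δ* libraries were the higher ones at both temperatures, but 1 untagged library at 30°C had 377, more than either wildtype library, and the other had 0. The log2 fold change was 7.66 (SE 1.18) at 20°C with an edgeR adjusted p of 3.22e-08. At 30°C it was 2.42 (SE 0.844) with an adjusted p of 0.404. Without replicate 2 at 20°C the change was 5.09 with adjusted p = 0.0586, and without replicate 1 it was 12.85 with adjusted p = 0.0101. With no replicate block it was 6.21 and did not pass (edgeR adjusted p = 0.0881). The difference between the effects at 20°C and 30°C was 5.24 (SE 1.39) on the log2 scale, and edgeR's adjusted p of 0.107 did not pass.

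These fold changes carry a shift of the whole table. The median log2 fold change over all 4831 genes tested was -1.12 at 20°C and 0.13 at 30°C, and with DESeq2 size factors the median at 20°C was -0.77. Relative to the median of all genes, *ATP16* stood at 8.79 and *ATP15* at 4.85 at 20°C, and at 2.29 and 5.57 at 30°C.

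*INH1*, the inhibitor that holds ATP hydrolysis by the complex in check, had 0 and 69.1 CPM in wildtype at 20°C and 400.5 and 366 in *new1Δ*. At 30°C it had 68.3 and 21.8 in wildtype and 487 and 633 in *new1Δ*. Groups did not overlap, and untagged libraries had no read on it. Its log2 fold changes of 5.27 (SE 2.09) and 4.07 (SE 1.59) did not pass, with edgeR adjusted p = 0.404 and 0.787. DESeq2 called *INH1* at 20°C, at 5.77 with an adjusted p of 0.00669. Without replicate 2 at 20°C edgeR gave 11.16 (adjusted p = 0.0873), against a wildtype library with 0 reads, and without replicate 1 it gave 2.06 (adjusted p = 0.819).

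*ATP2*, the catalytic beta subunit, was read 1562 and 2472 times in wildtype at 20°C, against 236 and 385 times in *new1Δ*, or 1910 ± 262 against 755 ± 580 CPM (SD, n = 2). The wildtype libraries were the higher ones, also at 30°C, where means were 1352 ± 67.1 and 934 ± 140 (SD, n = 2). The log2 fold changes of -1.73 (SE 0.613, edgeR adjusted p = 0.221) and -0.28 (SE 0.586, adjusted p = 1.0) did not pass, and relative to the median of all genes they were -0.60 and -0.41. Without replicate 2 at 20°C the value was -2.32 with adjusted p = 0.219. *ATP1* had 1296 and 1226 CPM in wildtype at 20°C against 2341 and 1953 in *new1Δ*, both of which were higher. The groups overlapped at 30°C, with 1429 and 993 against 828 and 1661. Its log2 fold changes were 0.62 (SE 0.551) and 0.24 (SE 0.568), with edgeR adjusted p = 0.98 and 1.0. *ATP1* and *ATP2* together made up 50.7% and 47.6% of all member reads in Hel2-HTP wildtype at 20°C and 30.6% and 28.5% in *new1Δ*. At 30°C these shares overlapped, with 34.2% and 26.4% in wildtype and 17.6% and 26.4% in *new1Δ*. Background reads of the untagged libraries at 30°C lay on both, with 169 and 5 on *ATP1* and 279 and 20 on *ATP2*.

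The remaining 9 subunits of ATP synthase, of the stalk and the membrane part, had between 0 and 647 reads in a tagged library, and none passed the test at either temperature. *ATP14* had no read in any of the 4 Hel2-HTP libraries at 20°C. *TIM11*, the e subunit that helps pair the complexes, had 68 and 178 reads in wildtype at 20°C and no read in *new1Δ* (edgeR adjusted p = 0.98), and at 30°C 127 and 28 reads against 1 and 19 (adjusted p = 1.0). It was singled out after its values were seen. The summed reads of ATP synthase were 4083 and 4082 in CPM in wildtype at 20°C and 6217 and 6988 in *new1Δ*. The 3 genes with AAA supplied 72.4 and 275 of these in wildtype and 2612 and 3294 in *new1Δ*, and the other 11 supplied 4011 and 3807 in wildtype and 3606 and 3694 in *new1Δ*. The same split held at 30°C, where the 3 genes gave 257 and 516 in wildtype and 2247 and 2409 in *new1Δ*, and the other 11 gave 3968 and 3766 against 3418 and 3729.

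**Figure D3:**
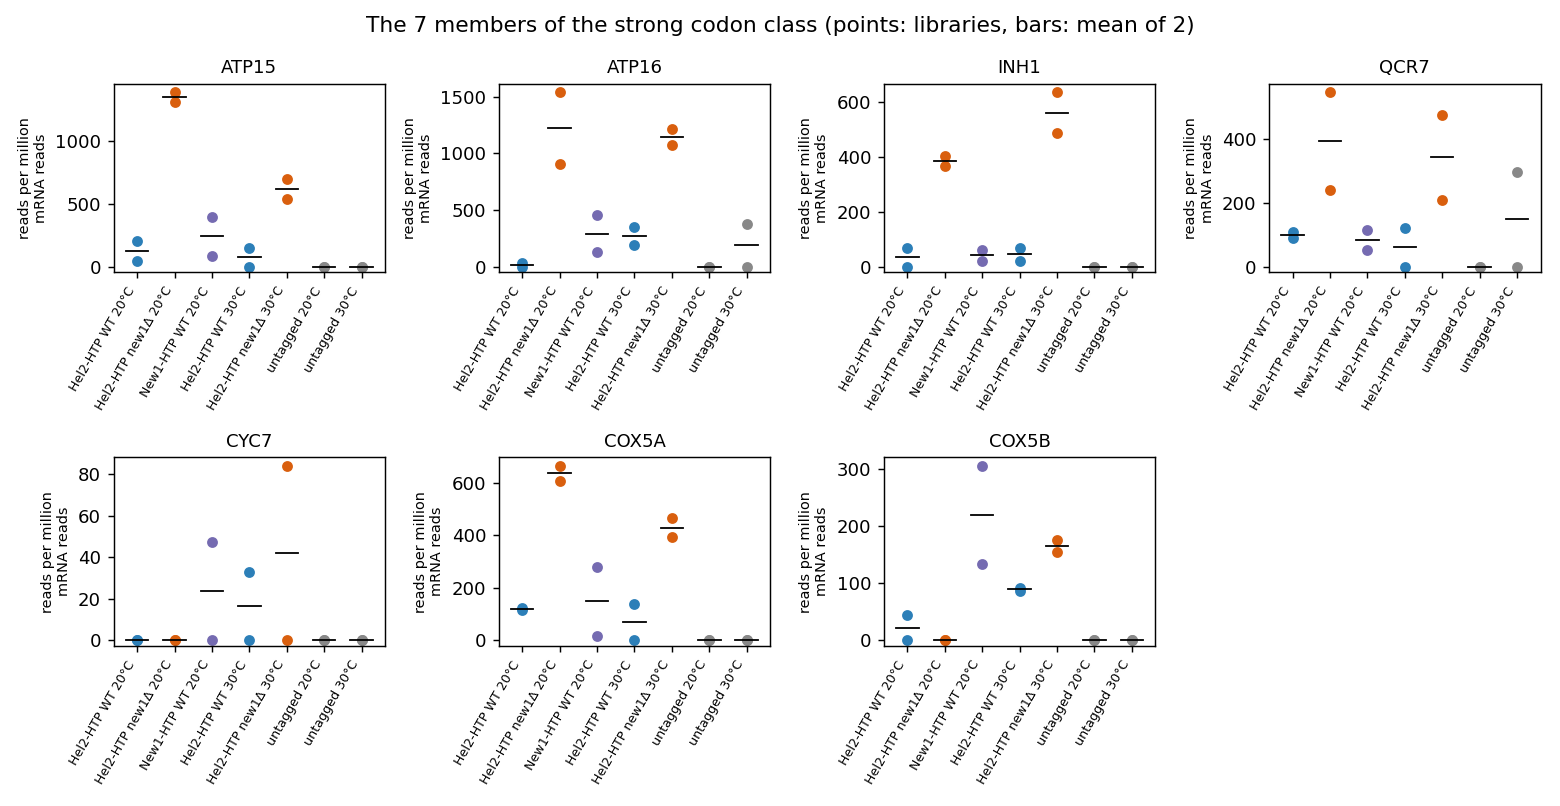
CPM of the 7 members of the strong codon class (1 panel each) in the 7 groups, with libraries as points and the mean of the 2 as a bar. *ATP15*, *ATP16*, *INH1*, *QCR7* and *COX5A* lie higher in both *new1Δ* libraries than in both wildtype libraries at each temperature, while *COX5B* does so at 30°C only and *CYC7* at neither.

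In complex III, no member passed edgeR's test between *new1Δ* and wildtype, and DESeq2 called *QCR7* at 30°C. *QCR7*, a subunit on the matrix side of the complex and the member of this complex that ends in AAA, was covered by 80 and 128 reads in wildtype at 20°C, against 165 and 181 in *new1Δ*. At 30°C wildtype had 0 and 44, *new1Δ* 205 and 188 and the untagged strain 0 and 7. In CPM, both *new1Δ* libraries were above both wildtype libraries at each temperature. The log2 fold changes were 1.75 (SE 1.58) and 5.20 (SE 2.20), with edgeR adjusted p = 0.98 and 1.0. DESeq2 gave 5.22 with an adjusted p of 0.0289 at 30°C, and without replicate 2 at 20°C edgeR gave 1.45 with an adjusted p of 1.0. *QCR10*, a small subunit that ends in AAT of the mild class, had 107 and 160 CPM in wildtype at 20°C. In *new1Δ* it had 136 and 536 at that temperature, so the groups overlapped. At 30°C it had 240 and 273 CPM in wildtype, against 344 and 649 in *new1Δ*. Its log2 fold changes were 0.90 (SE 1.25) and 1.14 (SE 1.25), with edgeR adjusted p = 0.98 and 1.0. *QCR9* had no read in the 4 Hel2-HTP libraries at 20°C and was not tested in them. The other 6 members, among them the core proteins *COR1* and *QCR2*, the iron-sulfur protein *RIP1* and cytochrome c1 (*CYT1*), had 0 to 843 reads in a tagged library. The sum of the 9 members was 974 and 765 CPM in wildtype at 20°C and 766 and 1844 in *new1Δ*, so the groups overlapped.

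The genes of cytochrome c were near the limit of detection. *CYC7*, the hypoxic isoform, ends in AAA and had reads in 3 of the 10 tagged libraries, with 48 in New1-HTP replicate 2, 12 in wildtype replicate 2 at 30°C and 33 in *new1Δ* replicate 2 at 30°C. No difference was detectable for it at this depth. *CYC1*, the aerobic isoform, ended in GAG and had 0 to 189 reads in a tagged library and 105 in 1 untagged library at 30°C. The coding sequences of the 2 isoforms are identical at 78.1% of aligned bases with a longest shared run of 35, so short reads could be placed on either and both values are uncertain.

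In complex IV, the isoforms of subunit V shared the last sense codon. *COX5A*, the isoform used with oxygen, had 117 and 121 CPM in wildtype at 20°C and 664 and 609 in *new1Δ*. At 30°C it had 0 and 139 in wildtype and 465 and 392 in *new1Δ*, and no read in the untagged libraries. The *new1Δ* libraries were the higher ones at each temperature. The log2 fold changes of 2.27 (SE 1.30) and 5.34 (SE 1.95) had edgeR adjusted p = 0.98 and 0.541. DESeq2 called *COX5A* at 30°C, at 5.40 with an adjusted p of 0.0121, and without replicate 2 at 20°C edgeR gave 2.79 with an adjusted p of 0.965. *COX5B*, the isoform used at low oxygen, was read 0 and 64 times in wildtype at 20°C and never in *new1Δ*, and at 30°C 78 and 32 times in wildtype against 171 and 61 times in *new1Δ*. At 20°C its direction was opposite to that of *COX5A*, with a log2 fold change of -5.91 (SE 5.21, edgeR adjusted p = 0.98), and a difference between the 2 genes was not tested. The 64 reads came from 4 cDNAs, and at 30°C both genes were higher in CPM in both *new1Δ* libraries. The 2 coding sequences are identical at 67.5% of aligned bases with a longest shared run of 12. The other 7 members of the complex had 0 to 424 reads in a tagged library and none passed. At 20°C *COX4*, *COX6* and *COX9* were without a read in *new1Δ*, where the wildtype libraries had 0 and 87, 1 and 65, and 0 and 34. Of all genes used, 51.3% and 69.3% had a read in these wildtype libraries and 50.5% and 35.2% in *new1Δ*, so a loss on these members is not shown. The sum of the 9 members was 786 and 755 CPM in wildtype at 20°C and 869.6 and 805 in *new1Δ*.

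Complex II contained the member that was called lower in *new1Δ*, at 20°C only. *SDH1*, the flavoprotein subunit of succinate dehydrogenase, was covered by 359 and 242 reads in Hel2-HTP wildtype at 20°C and by none in either *new1Δ* library. Against a floor of 3 reads per library the wildtype level was 109.8 times the floor in replicate 1 and 18.6 times in replicate 2. These ratios are not lower bounds on the change, since the *new1Δ* libraries held 7.48 and 7.95 member reads per cDNA. Replicate 2 holds the library with the divergent header. The ratio of the mean level to the mean floor was 48.3, and edgeR's adjusted p was 0.0407. The wildtype reads came from 48 and 29 cDNAs, and the ratios to the floor still carry the shift of the whole table. At 30°C *SDH1* was read 417 and 24 times in wildtype, against 57 and 55 times in *new1Δ*. The libraries overlapped in CPM, with a log2 fold change of -0.74 (SE 2.44, edgeR adjusted p = 1.0). The difference between the temperatures was -10.11 (SE 3.73, edgeR adjusted p = 0.751). The call at 20°C was lost in 7 of 8 alternatives, among them the fit with no replicate block (adjusted p = 0.0919), the fit without replicate 1 (adjusted p = 0.384) and the fit without replicate 2 (adjusted p = 0.291). *SDH1* ends in TAC and has a copy of similar sequence, YJL045W, identical at 76.2% of aligned bases. *SDH2*, *SDH3* and *SDH4* had 0 to 217 reads in a tagged library and did not pass.

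The 3 NADH dehydrogenases did not pass the test in any comparison. *NDE1*, the main external enzyme, was read 35 and 237 times in wildtype at 20°C against 357 and 125 times in *new1Δ*, and 283 and 60 times at 30°C against 55 and 17 times. In CPM, *new1Δ* was the higher group at 20°C and the lower at 30°C, with log2 fold changes of 2.18 (SE 1.92) and -1.98 (SE 1.75) and a difference of 4.17 (SE 2.60, edgeR adjusted p = 1.0). *NDI1*, the internal enzyme, had 0 to 216 reads in a tagged library and 364 in 1 untagged library at 30°C, so no level above background can be given for it at 30°C. *NDE2* had reads in 4 tagged libraries.

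**Figure D4:**
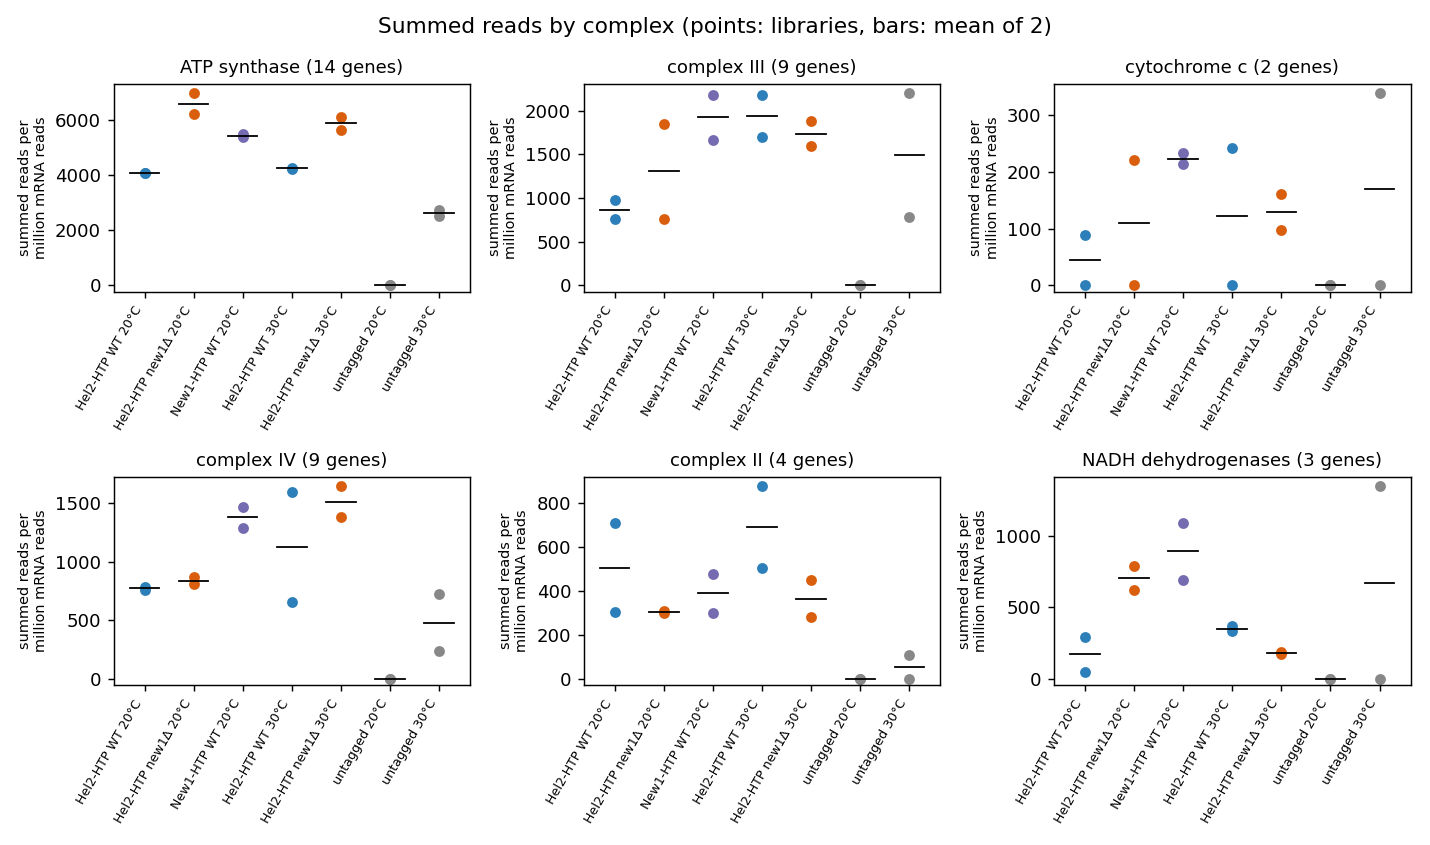
Summed CPM of the members of each complex (1 panel each) in the 7 groups, with libraries as points and the mean of the 2 as a bar. For ATP synthase, both *new1Δ* libraries lie above both wildtype libraries at each temperature (6217 and 6988 against 4083 and 4082 at 20°C), while the groups overlap for complex III.

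Over the whole set, 3 of the 40 members tested passed at an adjusted p of 0.05 at 20°C (7.5%), 2 higher and 1 lower, against 1.39% of the 4831 genes tested in either direction, 0.683% higher and 0.704% lower. At 30°C 1 of 40 was higher (2.5%) and none was lower, against 0.497% of all genes higher and 0.0% lower. The test of the difference between the temperatures gave 0 of 40 by edgeR and 0 by DESeq2, with 2 members (*ATP16* and *SDH1*) at an unadjusted p below 0.05, against 0.124% of all genes called and 2.5% at that unadjusted p. At an unadjusted p below 0.05 there were 5 of 40 members at 20°C, against 5.65% of all genes, and 5 of 40 at 30°C, against 2.19%. Without regard to the test, 9 of 40 members at 20°C had both *new1Δ* libraries above both wildtype libraries in CPM, against 9.0% of all genes, and 8 had both below, against 22.1%. At 30°C 9 of 40 were above, against 13.3%, and 6 below, against 18.8%. The members' median log2 fold change was 0.00 at 20°C against -1.12 for all genes, and 0.17 against 0.13 at 30°C. The median at 20°C fell on *ATP14* and *CYC7*, which had no Hel2-HTP read at 20°C and were fitted at 0, so it is not a measured change.

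Summed levels were compared between the members with AAA and the others, with the class chosen in part on these libraries. The 7 members with AAA together had 296 and 530.3 CPM in Hel2-HTP wildtype at 20°C and 3516 and 4451 in *new1Δ*. The other 34 members together had 6390 and 5668 in wildtype, against 5262 and 6494 in *new1Δ*. At 30°C the 7 had 349 and 895 in wildtype and 3098 and 3518 in *new1Δ*, and the other 34 had 7925 and 7793 in wildtype and 6366 and 6667 in *new1Δ*. For the 7, the *new1Δ* libraries were above the wildtype libraries at both temperatures, and for the 34 they overlapped at 20°C and lay below at 30°C. The untagged libraries at 30°C had 377 and 296 on the 7, all of it from *ATP16* in replicate 1 and *QCR7* in replicate 2. In *new1Δ* most of the reads of the 7 were on *ATP15* and *ATP16*, and *COX5B* and *CYC7* were not higher in *new1Δ* at 20°C. Of the 9 members with both *new1Δ* libraries above both wildtype libraries at 20°C, 5 end in AAA, and the other 4 were *ATP1*, *QCR6*, *NDI1* and *NDE1*. The share of member reads that fell on the 7 was 4.43% and 8.56% in wildtype at 20°C and 40.1% and 40.7% in *new1Δ*, and 4.21% and 10.3% against 32.7% and 34.5% at 30°C.

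The ratio of *new1Δ* to wildtype was also formed within each pair of libraries of the same number, with 1 read added to each value, and divided by the median ratio of the pair. Of the 32 members with a value in all 4 pairs, 6 were above the median of all genes in each pair, against 11.1% of 2821 genes, and these were *ATP15*, *ATP16*, *INH1*, *QCR7*, *COX5A* and *QCR10*. All 5 members with AAA that had 4 values were among them, and of all genes in the strong class 35.2% of 403 were. The log2 pair ratios were 5.24, 4.72, 8.80 and 2.53 for *ATP15* (20°C replicates 1 and 2, then 30°C) and 5.02, 13.08, 2.64 and 1.89 for *ATP16*. They were 8.49, 4.37, 2.77 and 4.97 for *INH1*, 1.43, 4.58, 7.44 and 2.25 for *QCR7* and 2.76, 4.29, 8.58 and 1.75 for *COX5A*. Ratios against a library with 0 reads depend on the added read, so their size is not an estimate of a fold change. *COX5B* was below the median in its only pair at 20°C (-1.93) and above it in both pairs at 30°C (0.88 and 1.09).

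The 4 members that end in AAG were not above the median in each pair. *ATP4* and *QCR6* were above it in 3 of 4 pairs, *SDH4* in 2 and *CYT1* in 1. Their median ratios by pair were 0.41 and 2.76 at 20°C and -0.38 and 0.20 at 30°C, where the members with AAA had 5.02, 4.48, 5.10 and 1.89. *QCR2* and *TIM11* were below the median in all 4 pairs, against 7.83% of all genes.

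**Figure D5:**
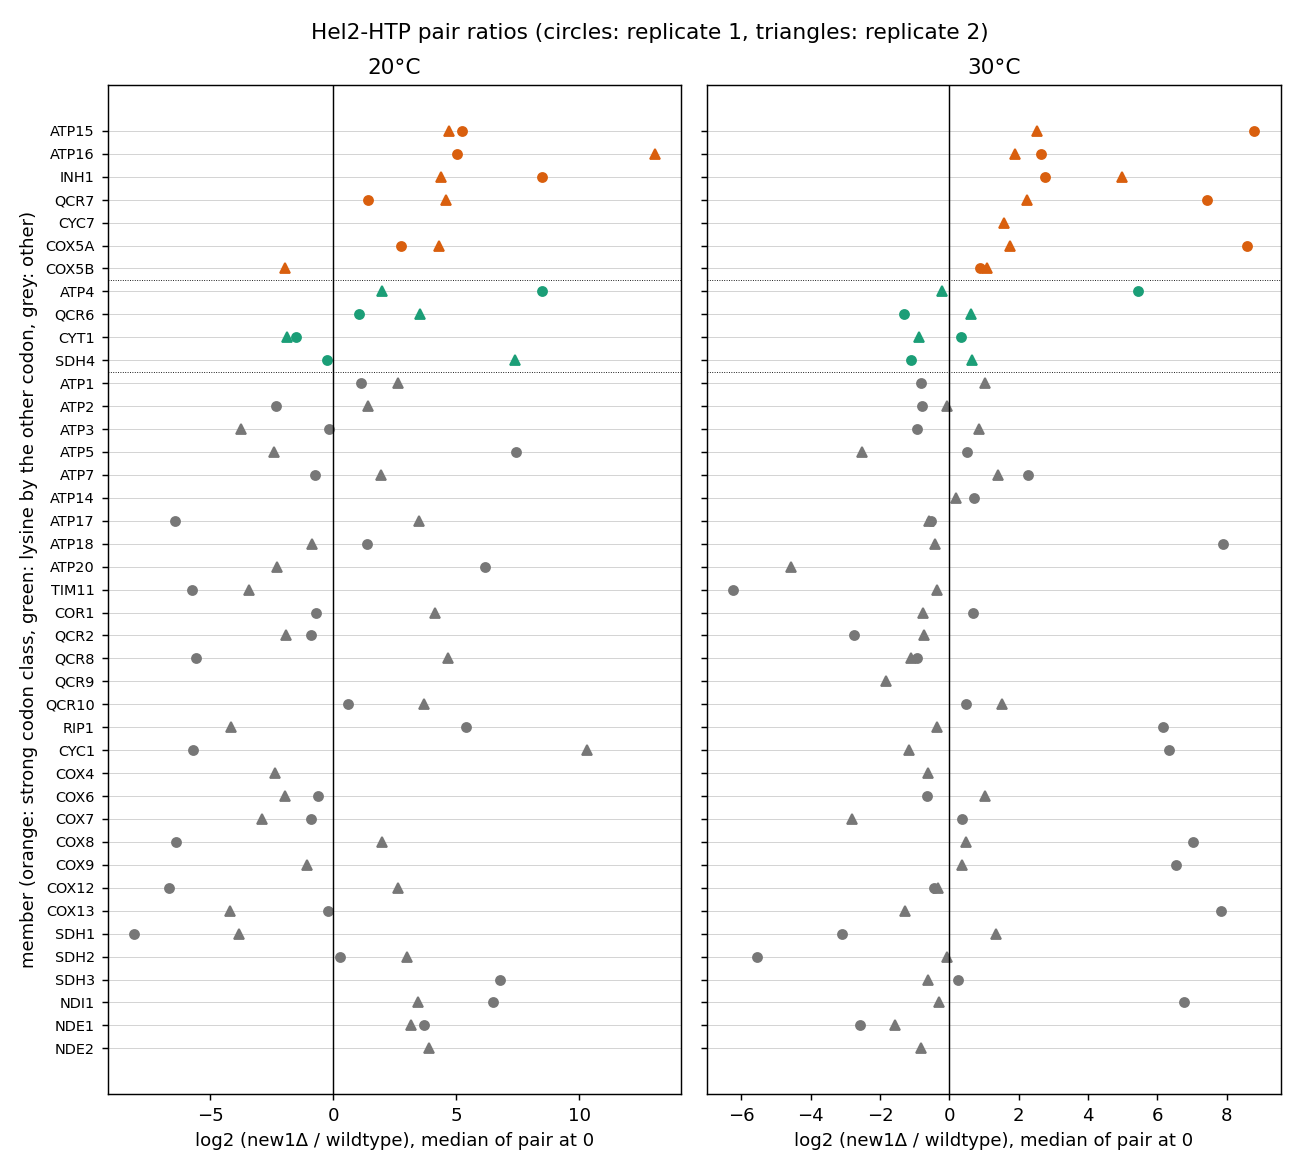
Log2 ratio of *new1Δ* to wildtype Hel2-HTP reads within each pair of libraries at 20°C (left) and 30°C (right), with the median of all genes in the pair at 0. Circles are replicate 1 and triangles replicate 2, and a gene without a point had no read in either library. All points of the strong class (orange) lie above 0 except *COX5B* in replicate 2 at 20°C (-1.93), and points of the other lysine codon (green) lie on both sides.

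New1-HTP at 20°C gave reads on the same mRNAs in wildtype for the protein that is absent in *new1Δ*. By the paper's methods, the RNase time and the volume of beads differed between New1-HTP and Hel2-HTP samples at 20°C. Bound protein and preparation therefore cannot be told apart in this comparison. Members took 1.02% and 1.03% of its mRNA reads, against 0.669% and 0.620% with Hel2-HTP in wildtype and 0.878% and 1.09% with Hel2-HTP in *new1Δ*. No member passed between New1-HTP and Hel2-HTP in wildtype by edgeR or DESeq2 (0 of 39 tested, against 0.0482% of 4149 genes), and 2 had an unadjusted p below 0.05 (against 2.1%), *ATP16* and *NDE1*. Members with both New1-HTP libraries above both Hel2-HTP libraries numbered 16 of 39, against 19.7% of all genes, and 1, *SDH2*, had both below, against 15.4%. *ATP16* had 454 and 127 CPM with New1-HTP against 32.2 and 0 with Hel2-HTP, a log2 fold change of 4.16 (SE 1.64, edgeR adjusted p = 1.0). The replicate block moved this to 4.82 with an adjusted p of 0.0356. Without New1-HTP replicate 2, whose header names another strain, so that 1 New1-HTP library was left and the other groups gave the spread, it was 4.78 with an adjusted p of 0.00619, and without both libraries with a divergent header it was 4.79 with 0.492. *NDE1* had 529 and 488 reads with New1-HTP against 35 and 237 (log2 fold change 2.44, SE 1.00, edgeR adjusted p = 1.0).

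The other members with AAA had levels with New1-HTP that overlapped those with Hel2-HTP in wildtype, except *COX5B* with 198 and 137 reads against 0 and 64. *ATP15* had 255 and 87 reads with New1-HTP, *INH1* 40 and 22, *QCR7* 34 and 116 and *COX5A* 181 and 17. The 7 together had 1548 and 546 CPM with New1-HTP, against 296 and 530.3 with Hel2-HTP. The other 34 had 8679.5 and 9704 with New1-HTP, against 6390 and 5668 with Hel2-HTP.

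Between 20°C and 30°C in Hel2-HTP wildtype, *ATP16* was the member that differed, lower at 20°C, and it was 1 of 40 tested (2.5%) against 0.103% of all genes lower and 0.207% in either direction. At an unadjusted p below 0.05 there were 2 members, against 2.63% of all genes. Its log2 fold change was -5.10 (SE 1.02, edgeR adjusted p = 0.00104). The gene was read 24 and 0 times at 20°C, against 160 and 128 times at 30°C, where an untagged library had 117 reads. The call was lost without replicate 1 at 20°C (-10.54, adjusted p = 0.0806), without replicate 2 (-3.25, adjusted p = 0.374) and without the replicate block (adjusted p = 1.0). Both 20°C libraries were below both 30°C libraries in 10 of 40 members, against 19.1% of all genes, and above in 2, *ATP2* and *ATP7*, against 14.9%.

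Among other genes of respiration, the carrier of ADP and ATP was the gene that passed the test. Lists of assembly and expression factors for ATP synthase and complexes II, III and IV, of coenzyme Q synthesis, of carriers and of the tricarboxylic acid cycle held 92 names, of which 91 matched and 78 were tested with Hel2-HTP. Of these, 1 passed at 20°C and 1 at 30°C, the same gene in both, and 0 were lower at either temperature, against 1.39% of all genes called at 20°C and 0.497% at 30°C, so that at 20°C the share was near that of all genes. It was *PET9*, the main carrier that exchanges ADP and ATP across the inner membrane, which also ends in AAA. The paper places genes of the tricarboxylic acid cycle list in the strong class as well. None of the 13 genes tested of that list passed at either temperature. *PET9* was read 404 and 871 times in wildtype at 20°C, against 3422 and 486 times in *new1Δ*, and 491 and 261 against 1831 and 1580 at 30°C, with 146 and 2 in the untagged libraries at 30°C. These reads are not scaled to depth, and replicate 2 at 20°C held 1433090 mRNA reads in wildtype and 330299 in *new1Δ*. The log2 fold changes were 2.10 (SE 0.546) and 2.36 (SE 0.515), with edgeR adjusted p = 0.0133 and 0.00155. At 20°C the value was 3.49 with adjusted p = 0.0586 without replicate 2 and 0.93 with adjusted p = 0.785 without replicate 1. At 30°C it was 2.77 with adjusted p = 0.293 without replicate 1 and 1.86 with adjusted p = 1.0 without replicate 2. With no replicate block neither call held (edgeR adjusted p = 0.185 and 0.341), nor with at least 10 reads in every library (0.0533 and 0.0829), and the one at 30°C was lost with only the libraries compared (0.11). *PET9* has the paralogs *AAC1* and *AAC3*, and reads that fit more than 1 of them cannot be assigned. The median over the 78 genes was -0.59 at 20°C and 0.40 at 30°C, against -1.12 and 0.13 for all genes. Of the lists, 64 genes were tested between New1-HTP and Hel2-HTP, and none passed by edgeR.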

How the data were processed

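CRAC reads of 14 libraries in 7 groups were used. The authors mapped reads with novoalign. Per the file headers, pyReadCounters 1.4.2 (30°C) and 1.4.4 (20°C) produced the deposited counts from an Ensembl annotation with untranslated regions. Counts are sense reads per gene, not collapsed and not normalized. The RPKM values that the authors deposited beside the counts served only to recover feature lengths. Reads per kb were recomputed from them. The deposited numbers of distinct cDNAs, which include antisense reads, were an alternative. The counts are sums over whole genes, so the position of reads within a gene was not analysed here.

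Of 6454 protein-coding features, 5865 matched the R64 annotation by name, and 5838 were used. Reads on features not used were 1.03% to 5.48% of mRNA reads. Tagged libraries held 3.36 to 14.1 reads per cDNA on the members, so reads are not independent molecules and intervals cover counting error only. The floor for a gene without reads was 3 reads per library.

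edgeR 4.0.16 (quasi-likelihood test, TMM, filterByExpr, Benjamini-Hochberg at 0.05, R 4.3.3) was fitted to the 8 Hel2-HTP libraries with group means and a block for the replicate pair at each temperature, since the study formed its ratios by pair and sequenced a replicate of each temperature in 1 run. New1-HTP was compared with Hel2-HTP in the 6 tagged 20°C libraries without a block. Same-numbered libraries deviated together only weakly, with a correlation of 0.03 at 20°C, 0.06 at 30°C and 0.01 for New1-HTP. SE values are the fold change divided by the square root of F. On simulated counts for the 20°C comparison (4373 genes), 14 of 50 genes raised by a log2 change of 6 and 4 of 49 raised by 4 were called, 1 of 40 lowered by 6 and 0 of 44 lowered by 4 were called, and 0 of 4190 unchanged genes. Alternatives used DESeq2 1.42.0, its size factors, other filters, cDNA numbers, other sets of libraries, no block and each replicate left out.

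The members and all lists were chosen with earlier results of these data known. Values in every library are given for members with an adjusted p under 0.05 in any comparison, members ending in AAA, AGG or CGU, and the 5 with the highest mean level per length. Others are given by ranges and counts, and genes of other lists are named where they passed.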

Additional observations from a re-analysis of the deposited data

How the results depend on the processing

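The count of members called was small, and each of the 5 comparisons changed under at least 1 alternative. At 20°C, *new1Δ* against wildtype gave 3 members and 67 genes in all. When each library had to hold at least 10 reads of a gene, it gave 0 members and 40 of 780 genes, with 7 members left, and 0 members and 20 genes with no replicate block. Leaving out a replicate gave 0 to 1 members and 19 to 25 genes, the fit on only the libraries compared 38 genes, and DESeq2 251. At 30°C, 1 member and 24 genes became 3 members and 60 genes with DESeq2 and 2 members and 38 genes with cDNA numbers. They became 0 members with the minimum of 10 reads (8 genes), with no replicate block (5 genes) and with only the libraries compared (1 gene), and 0 to 1 members on leaving out a replicate (7 to 20 genes). For the difference between temperatures, 0 members became 0 to 1 on leaving out a replicate, with *ATP16* passing without replicate 1 at 20°C, and the 6 genes in all became 25 with DESeq2, 2 with no replicate block and 0 to 8 on leaving out a replicate. For New1-HTP against Hel2-HTP, 0 members became 1 with the replicate block (*ATP16*) and 0 to 1 on leaving out a library, and the 2 genes in all became 14 with DESeq2. The alternative without libraries with a divergent header was added after the data were seen and gave 0 members and 5 genes. Between temperatures in wildtype, 1 member became 0 with the minimum of 10 reads, with no replicate block and with only the libraries compared, and 0 to 2 on leaving out a replicate, and the 10 genes in all became 64 with DESeq2, 19 with cDNA numbers and 0 to 14 on leaving out a replicate. The cause of these changes was not tested. The minimum of 10 reads and the left-out libraries leave fewer genes or libraries by construction. The fit of the Hel2-HTP libraries with no replicate block holds the same genes and libraries, and no member passed in it at 20°C or at 30°C. No named member changed direction where it was past the threshold. *ATP16* at 20°C kept its call in 6 of 8 alternatives, *ATP15* in 5 of 8 at each temperature and *SDH1* in 1 of 8. With 2 replicates and genes at 0 reads in many libraries, depth limits most members to large changes.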

Other observations

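The subunits made from mitochondrial DNA were outside the comparisons and had few reads. The 7 genes (*COX1*, *COX2*, *COX3*, *COB*, *ATP6*, *ATP8* and *OLI1*) together had between 27 and 619 reads in a tagged library, most of them on *COX1*, and *ATP8* had none. Scaled to the mRNA reads of the library (CPM), this was 474 and 432 in Hel2-HTP wildtype at 20°C, 474 and 130.2 in *new1Δ*, 440.3 and 393 with New1-HTP, 214 and 281 in wildtype at 30°C and 187 and 68.7 in *new1Δ* at 30°C. The untagged libraries at 30°C had 377 and 677, above every Hel2-HTP library of that temperature.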
